A study of Mus musculus with 6 samples.

Results

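The mitochondrial biogenesis regulators are nuclear genes that set how much of the mitochondrial genome and of the respiratory chain a cell makes. Here 10 of them, chosen by gene symbol, were read from the 55421 genes of an RNA-seq table. They were the PGC-1 coactivators *Ppargc1a*, *Ppargc1b* and *Pprc1*, and the nuclear transcription factors *Nrf1*, *Gabpa* and *Esrra*. The others, grouped under mitochondrial DNA transcription, were *Tfam*, *Tfb1m*, *Tfb2m* and *Polrmt*. All 10 were among the 17640 genes that were tested, whose mean over the 6 libraries reached 10 normalized counts (reads on the gene divided by a size factor of the library).

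The RNA came from splenic mouse B cells activated for 24 h with LPS (5 µg/ml) and IL-4 (5 ng/ml). There were 3 libraries of WT cells (CD21-cre) and 3 of hnRNPL-deficient cells (hnRNPL F/F CD21-cre), each from a different mouse. hnRNPL is an RNA-binding protein that regulates splicing. Both genotypes carried CD21-cre, which acts in mature B cells, and per the study's methods also a Rosa mT/mG reporter on a C57BL6/J background. GFP+ cells, those in which Cre had acted, were sorted from the cultures after activation. The mice were older than 6 weeks. In bulk RNA, fewer cells that express a gene and less RNA per cell cannot be told apart.

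PGC-1 coactivators bind to transcription factors rather than to DNA, and raise the transcription of nuclear genes for mitochondrial proteins. NRF1, GABP (whose DNA-binding subunit is encoded by *Gabpa*) and the estrogen-related receptor ERRα (encoded by *Esrra*) are their best known partners. Among the targets of these factors are the genes of TFAM and the TFB proteins. TFAM and TFB2M, with the RNA polymerase POLRMT, transcribe the mitochondrial DNA. Activated B cells enlarge their mitochondrial mass as they start to grow and divide.

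The libraries held between 40395186 and 75180749 reads on genes, with 24009 to 26283 genes detected. *Hnrnpl*, the targeted gene, fell to 6.74% of its WT mean (log2 fold change -3.93). A gene was called at a Benjamini-Hochberg adjusted p under 0.1 in limma and a change of at least 1.5-fold, the study's thresholds. The B cell markers *Ms4a1*, *Cd79a*, *Cd79b*, *Cd74*, *Pax5* and *Cr2* were present in every library. For example, *Cd79a*, a subunit of the B cell receptor, was at 18631 ± 1217 normalized counts in the WT group (SD, n = 3). It was at 22515 ± 2917 in the hnRNPL-deficient group (SD, n = 3), and the groups overlapped. Directions within the list differed. *Cr2* was called higher (log2 fold change 0.85, limma adjusted p = 0.0444). *Ms4a1* was lower without overlap, from 58031 ± 7280 to 44128 ± 5537 (log2 fold change -0.40, limma adjusted p = 0.0988), which stayed under 1.5-fold. Of the other marker lists, 8 T and NK cell genes summed to 34.6 to 37.5 in WT and 12.3 to 21.2 in hnRNPL-deficient libraries, with *Ncr1* at 0 in all 6. The 7 erythroid and platelet genes summed to 13.8 to 37.1 and 54.1 to 82.8, with *Pf4* and *Ppbp* at 0, and the 5 plasma cell genes to 33957 to 39571 and 33296 to 36361. Within the last list *Jchain* was called lower, at 84.1 ± 50.4 in WT and 14.7 ± 8.23 after hnRNPL loss (log2 fold change -2.31, limma adjusted p = 0.0509). *Cd8b1* of the T and NK list was also called lower and *Hbb-bt* of the erythroid list higher (limma adjusted p = 0.0405 and 0.0235). The 8 myeloid genes summed to 260 to 332 in WT and 1239 to 1382 in hnRNPL-deficient libraries, nearly all of it *Adgre1*, with *S100a8* and *S100a9* at 0 in all 6. *Adgre1* was called higher (log2 fold change 2.24, limma adjusted p = 1.39e-04). *Itgam*, the other tested gene of that list, was not called (log2 fold change -0.07, limma adjusted p = 0.951). *Xist*, expressed from the inactive X chromosome of females, had 98507 normalized counts in WT replicate 3, 98219 in hnRNPL-deficient replicate 2 and at most 7.21 in the other libraries. With log2 *Xist* as a covariate in limma, 1 regulator was still called lower (*Ppargc1b*, log2 fold change -0.96, adjusted p = 0.0107) and 0 were called higher. The part of the marker differences in the results was not tested.

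Of the 10 regulators, 1 was called lower in hnRNPL-deficient cells and 0 were called higher. The lower one was *Ppargc1b*, which encodes the coactivator PGC-1β and was reduced 1.93-fold. By this rule 4.08% of all tested genes were lower and 7.28% were higher. At an unadjusted p under 0.05 in limma, 3 regulators were lower (*Ppargc1b*, *Pprc1* and *Tfb2m*) and 0 were higher, against 12.9% and 14.4% of all tested genes. The count tests edgeR and DESeq2, run on 5 libraries without hnRNPL-deficient replicate 2, each called 1 lower and 0 higher. For 2 regulators, *Ppargc1b* and *Tfb2m*, all hnRNPL-deficient values lay below all WT values, as they did for 16.3% of tested genes. Without the fold limit the count stayed at 1 lower, against 7.97% of tested genes. Log2 fold changes were below 0 for 8 of the 10, and for 9304 of the 17640 tested genes. Their median was -0.20, and that of all tested genes was -0.03. Without sign, the median size of change was 0.20 for the regulators and 0.28 for all tested genes.

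**Figure D1:**
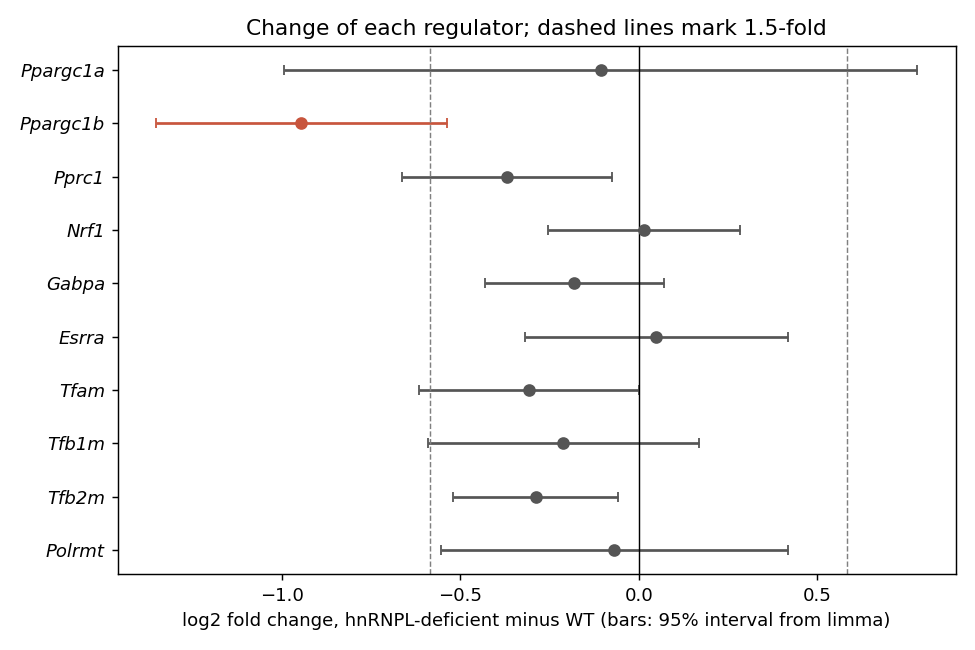
Log2 fold change of each regulator (x axis, hnRNPL-deficient minus WT, n = 3 libraries each) with its 95% interval from limma; dashed lines mark 1.5-fold and the colored point is the called gene. *Ppargc1b* is the only point beyond a dashed line, and the intervals of *Pprc1* and *Tfb2m* also lie below 0.

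The coactivators come first. *Ppargc1b* (ENSMUSG00000033871.14) spans 61298136 to 61400431 on the minus strand of chromosome 18 in GRCm38, the build the authors call mm10. It had 794, 907 and 932 normalized counts in WT replicates 1 to 3 and 401, 588 and 397 in hnRNPL-deficient replicates 1 to 3. The highest hnRNPL-deficient value was below the lowest WT value. The mean went from 878 ± 73.7 to 462 ± 109 (SD, n = 3 each), 47.3% below WT. The log2 fold change was -0.95 (standard error, SE, 0.179, 95% interval -1.35 to -0.54, limma adjusted p = 0.0135). Leaving out each library in turn gave -1.13 to -0.85, and the gene was called each time. Within the 4 libraries with low *Xist* the difference in mean log2 level was -1.09, and between the 2 libraries with high *Xist* it was -0.66. In the count tests on 5 libraries the log2 fold change was -1.10 by edgeR (adjusted p = 0.00785) and -1.12 by DESeq2 (adjusted p = 8.18e-09). Those tests left out hnRNPL-deficient replicate 2, the hnRNPL-deficient library with the highest *Ppargc1b* value. Without that library limma gave -1.13, so the larger size in the count tests is not independent of this omission.

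*Pprc1* (chromosome 19, 46044886 to 46072915, plus strand) encodes PRC, the PGC-1 relative linked to cell growth. It had 7755, 9777 and 9424 normalized counts in WT and 6339, 7988 and 6550 in hnRNPL-deficient libraries. The groups overlapped, since hnRNPL-deficient replicate 2 was above WT replicate 1. The mean was 8985 ± 1080 in WT and 6959 ± 898 without hnRNPL (SD, n = 3 each). This log2 fold change of -0.37 (SE 0.130, 95% interval -0.66 to -0.07, limma adjusted p = 0.107) did not pass. Its sign was the same in all 20 alternative analyses, with adjusted p from 0.0169 to 0.310, and it was called in none of them.

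*Ppargc1a* (chromosome 5, 51454250 to 51567726, minus strand) encodes PGC-1α, the member of the family best known from muscle, brown fat and liver. It was read from few molecules, with 59.2, 26.8 and 37.5 normalized counts in WT and 53.2, 28.3 and 31.5 in hnRNPL-deficient libraries. The groups overlapped over most of their range. The log2 fold change of -0.11 had a 95% interval of -0.99 to 0.78 (limma adjusted p = 0.885), an interval that holds both no change and the change of *Ppargc1b*.

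The share of the coactivator pair within a library was also compared, since a ratio of genes does not depend on the scaling between libraries. The ratio of *Ppargc1b* to *Pprc1* normalized counts was 0.102, 0.0928 and 0.0989 in WT and 0.0633, 0.0736 and 0.0607 in hnRNPL-deficient libraries. All hnRNPL-deficient ratios were lower. The log2 difference was -0.58, and an exact two-sided permutation test gave p = 0.1, the smallest that 3 against 3 libraries allow (0.5 after Benjamini-Hochberg adjustment over 5 ratios).

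**Figure D2:**
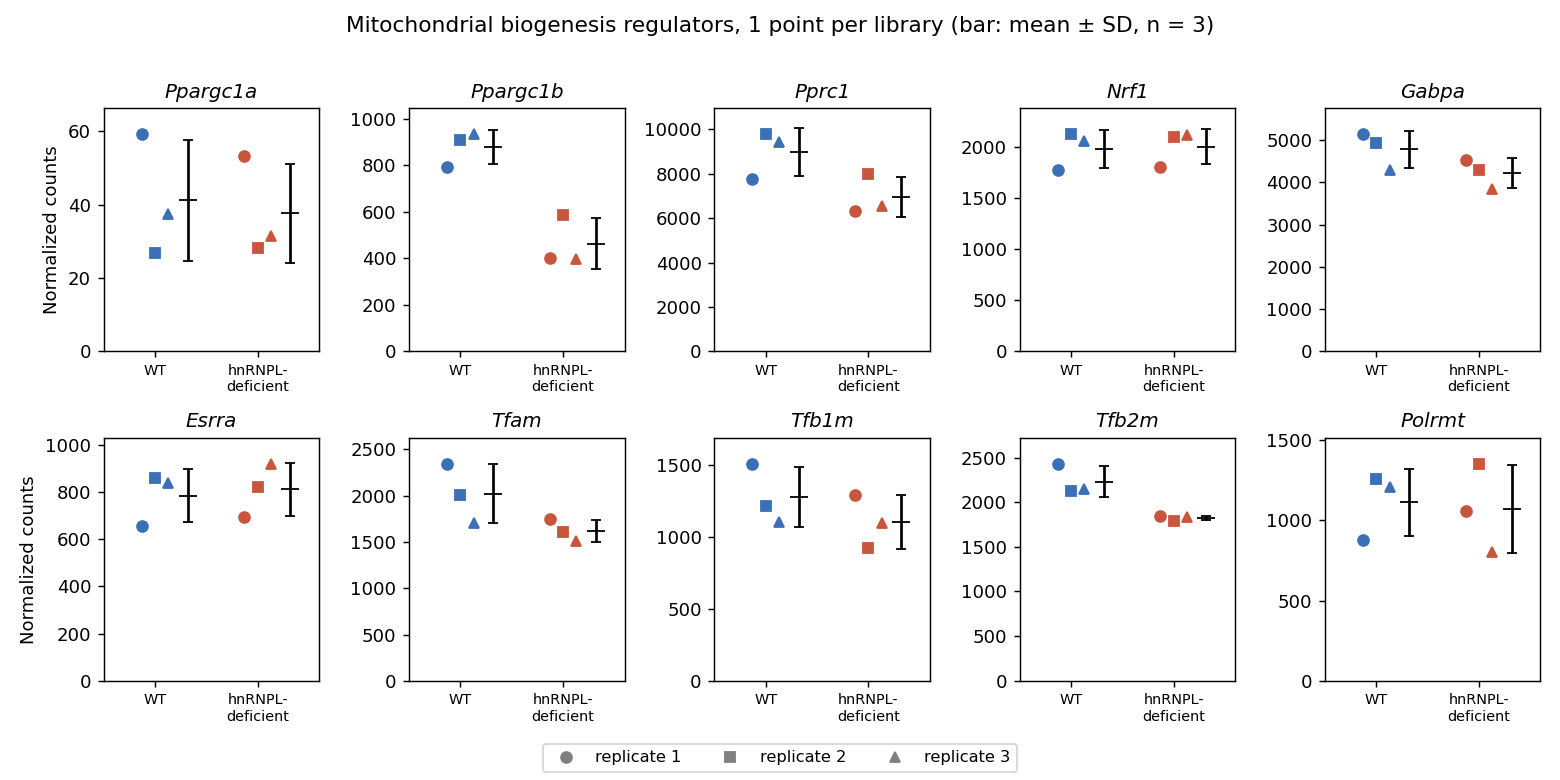
Normalized counts (y axes, from 0, each panel on its own scale) of the 10 regulators in each WT and hnRNPL-deficient library; bars give mean ± SD (n = 3) and symbols the replicate number. The groups separate for *Ppargc1b* and *Tfb2m*, and overlap for the other 8.

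None of the nuclear factors was called. *Nrf1* (chromosome 6, 30047988 to 30153458, plus strand), the activator of many respiratory chain genes, had 1774, 2125 and 2059 normalized counts in WT and 1804, 2098 and 2115 in hnRNPL-deficient libraries. Values of the genotypes were interleaved. Its log2 fold change was 0.01, with a 95% interval of -0.25 to 0.28 (limma adjusted p = 0.950), which lies within 1.5-fold (0.585 on the log2 scale) in either direction. *Esrra* (chromosome 19, 6910977 to 6921813, minus strand), the orphan nuclear receptor, had 655, 862 and 839 in WT and 694, 822 and 920 in hnRNPL-deficient libraries. These also overlapped, with a log2 fold change of 0.05 and a 95% interval of -0.32 to 0.42 (limma adjusted p = 0.868).

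*Gabpa* (chromosome 16, 84834925 to 84863779, plus strand) had 5139, 4928 and 4292 normalized counts in WT and 4522, 4303 and 3841 in hnRNPL-deficient libraries. WT replicates 1 and 2 were above all hnRNPL-deficient libraries, but WT replicate 3 was below hnRNPL-deficient replicates 1 and 2. Its log2 fold change was -0.18 (SE 0.110, 95% interval -0.43 to 0.07, limma adjusted p = 0.332). GABP works as a complex of this subunit with a β subunit. The ratio of *Gabpa* to *Gabpb1* was 1.51 ± 0.126 in WT and 1.41 ± 0.126 in hnRNPL-deficient libraries (SD, n = 3, exact permutation p = 0.4).

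The genes grouped under mitochondrial DNA transcription had values below WT on average, and none was called. *Tfb2m* (chromosome 1, 179528055 to 179546267, minus strand) encodes the factor that opens mitochondrial promoters for the polymerase. It had 2429, 2120 and 2144 normalized counts in WT and 1841, 1794 and 1833 in hnRNPL-deficient libraries. The groups did not overlap, and the hnRNPL-deficient values lay close together (mean 1823, with an SD of 1.37% of it, against 2231 ± 172 in WT, n = 3). The reduction was 1.22-fold, or -0.29 as a log2 fold change (SE 0.101, 95% interval -0.52 to -0.06, limma adjusted p = 0.106), which did not pass. *Tfb1m* (chromosome 17, 3519256 to 3557781, minus strand) is its relative that methylates mitochondrial ribosomal RNA. It had 1511, 1220 and 1107 in WT and 1296, 923 and 1101 in hnRNPL-deficient libraries, which overlapped (log2 fold change -0.21, 95% interval -0.59 to 0.17, limma adjusted p = 0.451). This change was -0.08 without WT replicate 1, -0.09 without hnRNPL-deficient replicate 2 and -0.33 without hnRNPL-deficient replicate 1. It was -0.06 by edgeR, which also left out hnRNPL-deficient replicate 2. The *Tfb1m* to *Tfb2m* ratio was 0.571 ± 0.0530 in WT and 0.606 ± 0.0948 in hnRNPL-deficient libraries (exact permutation p = 0.7).

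*Tfam* (chromosome 10, 71225464 to 71238280, minus strand) encodes the protein that packages mitochondrial DNA and bends its promoters. It had 2343, 2009 and 1709 normalized counts in WT and 1749, 1602 and 1515 in hnRNPL-deficient libraries. Only hnRNPL-deficient replicate 1 reached into the WT range, above WT replicate 3. The log2 fold change was -0.31 (SE 0.135, 95% interval -0.62 to 0.002, limma adjusted p = 0.185). It became -0.19 without WT replicate 1, the highest library, -0.42 without WT replicate 3 and -0.36 without hnRNPL-deficient replicate 1. *Polrmt* (chromosome 10, 79736123 to 79746581, minus strand) had 875, 1255 and 1207 in WT and 1061, 1352 and 802 in hnRNPL-deficient libraries. The highest and the lowest value were both hnRNPL-deficient. Its log2 fold change was -0.07, with a 95% interval of -0.55 to 0.42 (limma adjusted p = 0.862). The *Polrmt* to *Tfam* ratio was 0.568 ± 0.173 in WT and 0.660 ± 0.164 in hnRNPL-deficient libraries (exact permutation p = 0.6).

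Levels were compared between genes as normalized counts per kb of annotated exon. In WT cells *Pprc1* was the highest, at 1430 ± 172 per kb (SD, n = 3). *Gabpa* (842 ± 77.6) and *Tfb2m* (796 ± 61.3) followed, and their libraries overlapped. *Tfam* (455 ± 71.5) and *Tfb1m* (354 ± 57.8) also overlapped with each other, but not with *Tfb2m* above or *Polrmt* below. *Polrmt* (237 ± 44.2), *Ppargc1b* (220 ± 18.5), *Nrf1* (193 ± 18.1) and *Esrra* (179 ± 25.9) formed a run in which each overlapped the next. *Ppargc1a*, at 6.24 ± 2.50 per kb, was below all the others. The PGC-1 transcripts in these cells were therefore mostly *Pprc1*, then *Ppargc1b*. In hnRNPL-deficient cells *Ppargc1b* was at 116 ± 27.2 per kb, below *Nrf1* (195 ± 17.0) and *Esrra* (185 ± 25.8) with no overlap with *Esrra*, its neighbor in the order. *Gabpa* (742 ± 61.2) and *Tfb2m* (650 ± 8.90) no longer overlapped there, and the remaining order was as in WT.

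**Figure D3:**
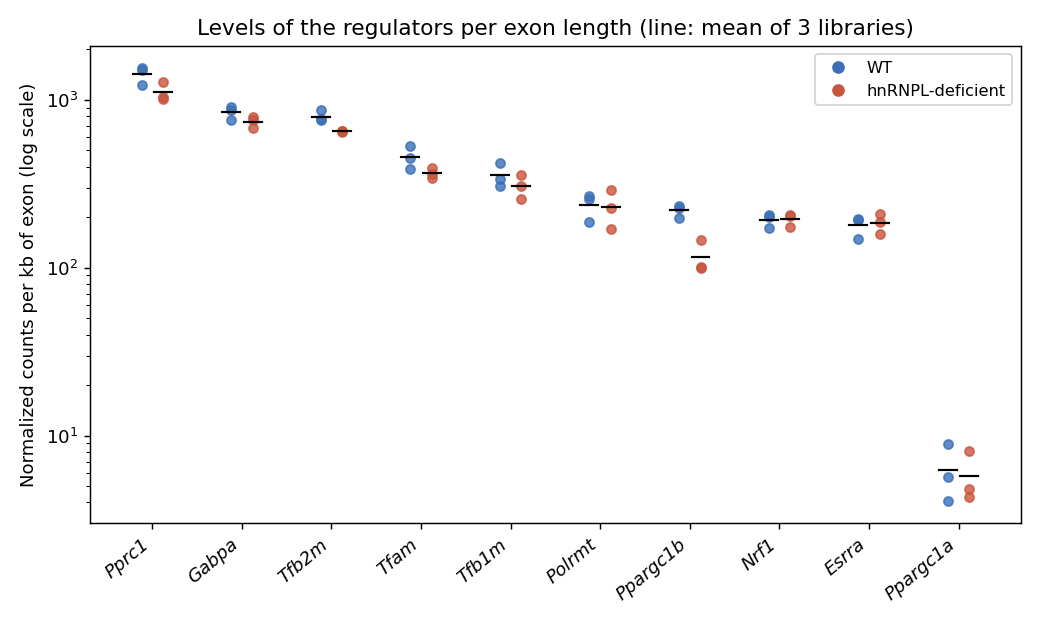
Normalized counts per kb of annotated exon (log scale) of the 10 regulators, 1 point per WT or hnRNPL-deficient library and a line at the mean of 3 libraries, ordered by WT mean. *Pprc1* leads at 1430 per kb in WT, *Ppargc1a* is lowest at 6.24, and *Ppargc1b* is the regulator whose groups stand farthest apart.

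Of 12391 genes whose mean reached 100 normalized counts, those whose 6 log2 values, centered on the WT mean, lay closest to *Ppargc1b* were *Stac2*, *Svbp* and *Rhbdf1* (Euclidean distances of 0.211, 0.241 and 0.250). Their log2 fold changes were -0.92, -0.91 and -0.88. These are the nearest patterns over 6 libraries only.

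NRF1 and GABP are known to act on genes of this family, so their motifs were looked for in the promoters, read as RefSeq windows from 250 bases before to 50 bases after each start (GRCm38.p6). Windows were given for 9 of the regulators (10 windows, 2 of them for *Nrf1*). The NRF1 motif was searched as GCGCANGCG and the GABP motif as CCGGAAG, each on both strands. The NRF1 motif was in 3 of the 10 windows, and in 6.25% of all 32851 windows. The GABP motif was also in 3 of 10, and in 8.86% of all windows. The estrogen-related receptor motif AAGGTCA (4.72% of all windows) and the E-box CACGTG (7.15%) were in 0 of 10. A match is a run of letters, not a measured binding site. The stretches around the matches are given 5′ to 3′ on the strand of the gene, with the motif in capitals, which reads as the reverse complement where the match is on the other strand.
*Esrra*, NRF1 motif: acaggaggccGCGCACGCGtgtgtatcga
*Tfb2m*, NRF1 motif: ctaggtcgttCGCATGCGCcattcgtaat
*Polrmt*, NRF1 motif, 2 overlapping matches: caggcggCGCGTGCGCGTGCGCactgcgg
*Polrmt*, GABP motif: cctaagagcgCTTCCGGcagtcgcaga
*Tfam*, GABP motif: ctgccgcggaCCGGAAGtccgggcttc
*Gabpa*, GABP motif: agggtaagtgCTTCCGGgtccctcagc

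The *Esrra* stretch is at chr19:6921931-6921959 (minus strand), outside annotated genes. That of *Tfb2m* is at chr1:179546246-179546274 (minus strand), where the 5′ untranslated exon begins. The *Polrmt* stretches are at chr10:79746565-79746593, which reaches into the 5′ untranslated exon, and chr10:79746608-79746634, upstream of the gene (both minus strand). The *Tfam* stretch is at chr10:71238075-71238101 (minus strand), in the 5′ untranslated exon of a longer transcript. The *Gabpa* stretch is at chr16:84835021-84835047 (plus strand), within the gene but in no annotated exon, and overlaps *Atp5j*. The regulator without a window was *Ppargc1b*, the only one called, so the matches cannot be set against the calls. For the 5 genes with a match, the log2 fold changes were 0.05 (*Esrra*), -0.29 (*Tfb2m*), -0.07 (*Polrmt*), -0.31 (*Tfam*) and -0.18 (*Gabpa*). For the regulators with a window and no match they covered a similar range, at -0.37 (*Pprc1*), -0.21 (*Tfb1m*), -0.11 (*Ppargc1a*) and 0.01 (*Nrf1*).

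The enzymes that modify the PGC-1 coactivators were compared next. Of 14 listed modifiers and corepressors 13 were tested, 1 was called lower and 1 higher (4.08% and 7.28% of all tested genes), and their median log2 fold change was -0.01. *Sirt1*, the NAD-dependent deacetylase that acts on PGC-1α, had 2886, 2629 and 2423 normalized counts in WT and 1123, 1085 and 1256 in hnRNPL-deficient libraries. It fell in every library, by 2.29-fold (log2 fold change -1.19, SE 0.114, limma adjusted p = 8.08e-04), and was called in all 20 alternatives. *Prkaa2*, a catalytic subunit of the energy sensor AMPK, was low in WT (36.0, 39.8 and 71.9) and higher in hnRNPL-deficient libraries (146, 107 and 112). Its log2 fold change was 1.34 (SE 0.314, limma adjusted p = 0.0300). *Prkaa1*, the other catalytic subunit, went from 5570 ± 941 to 6478 ± 640 normalized counts, WT first (SD, n = 3 each, limma adjusted p = 0.327).

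Of 17 coactivators and receptors that work with PGC-1, 13 were tested, and 1 was called higher and 2 lower (7.28% and 4.08% of all tested genes). Their median log2 fold change was -0.01, and that of all tested genes was -0.03. *Crebbp*, the acetyltransferase CBP, had 31075, 29305 and 30368 normalized counts in WT and 13293, 15727 and 16775 in hnRNPL-deficient libraries, a 1.99-fold reduction (log2 fold change -0.99, SE 0.109, limma adjusted p = 0.00148). All hnRNPL-deficient values were far below WT. *Ep300*, the related acetyltransferase p300, had 16189 ± 601 in WT and 17169 ± 361 in hnRNPL-deficient cells (log2 fold change 0.09, limma adjusted p = 0.558). *Mef2c*, a transcription factor that PGC-1α coactivates in muscle and that B cells also use, rose from 36059 ± 2385 to 55256 ± 5036 (log2 fold change 0.61, limma adjusted p = 0.0105). Its change was just past 1.5-fold, and fell under that limit without WT replicate 3 (0.57) or hnRNPL-deficient replicate 3 (0.54). *Perm1*, a muscle regulator that acts with PGC-1, had 22.0, 19.9 and 35.9 in WT and 6.31, 12.1 and 5.48 in hnRNPL-deficient libraries. Its log2 fold change was -1.61 (limma adjusted p = 0.0475), and the call was lost without WT replicate 3 or hnRNPL-deficient replicate 1 or 3 (adjusted p = 0.177, 0.115 and 0.111). *Pparg* and *Esrrb* were at 0 in all 6 libraries.

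Of 5 partners of GABP and NRF1, 0 were called in either direction by limma, edgeR or DESeq2, while 4 were lower at an unadjusted p under 0.05 in limma (12.9% of all tested genes were). *Gabpb2*, a β subunit of GABP, went from 7049 ± 338 to 4955 ± 322 normalized counts without overlap (log2 fold change -0.51, limma adjusted p = 0.0124), which stayed under 1.5-fold. *Gabpb1*, the other β subunit, had 3193 ± 475 and 2991 ± 50.3 (log2 fold change -0.08, limma adjusted p = 0.686). Of 17 target genes of NRF1 and GABP, 3 were lower and 1 higher at an unadjusted p under 0.05 in limma (12.9% and 14.4% of all tested genes). By limma 1 was called higher and 0 lower (7.28% and 4.08% of all tested genes), and the counts by edgeR and DESeq2 were the same. The higher one was *Cox17*, a copper chaperone of cytochrome oxidase, at 277 ± 63.7 normalized counts in WT and 445 ± 79.8 in the hnRNPL-deficient group (log2 fold change 0.69, limma adjusted p = 0.0704). Its call was lost in 7 of 20 alternatives, among them without WT replicate 1 (adjusted p = 0.161) or 3 (0.207), or without hnRNPL-deficient replicate 1 (0.124) or 3 (0.170).

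**Figure D4:**
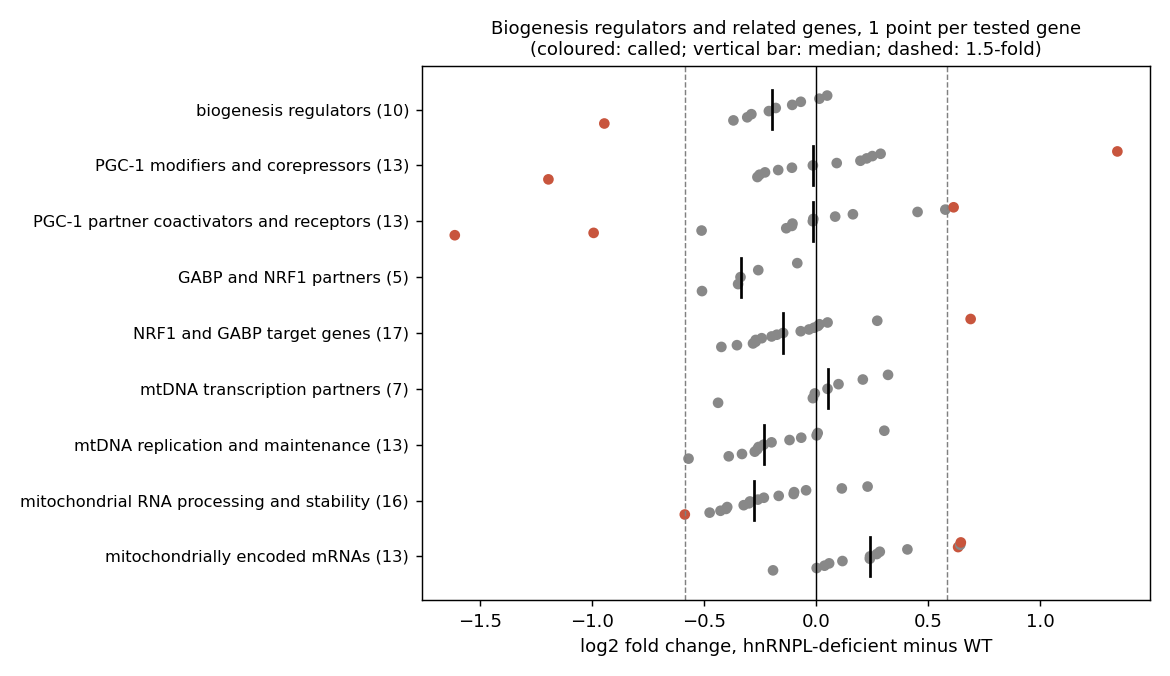
Log2 fold change (x axis, hnRNPL-deficient minus WT) of each tested gene in the biogenesis regulators and 8 related lists, with the number tested in brackets, called genes colored and a vertical bar at the median. Medians run from -0.34 for the GABP and NRF1 partners to 0.24 for the mitochondrially encoded mRNAs, and most points of every list lie between the dashed lines at 1.5-fold.

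The proteins that work on mitochondrial DNA and RNA beside the regulators were also compared. Of 7 partners of mitochondrial DNA transcription 0 were called by limma, edgeR or DESeq2. Only 1 was lower and 0 were higher at an unadjusted p under 0.05 in limma (12.9% and 14.4% of all tested genes). That gene was *Mrpl12*, a mitochondrial ribosomal protein that also binds to POLRMT (4820 ± 275 in WT, 3587 ± 575 in hnRNPL-deficient cells, log2 fold change -0.44, limma adjusted p = 0.0645). Of 13 genes of mitochondrial DNA replication and maintenance, 0 were called by limma or edgeR and 1 was called lower by DESeq2. In this list 1 was higher and 1 lower at an unadjusted p under 0.05 in limma (14.4% and 12.9% of all tested genes). Of 16 genes of mitochondrial RNA processing and stability, 1 was called lower and 0 higher by limma (4.08% and 7.28% of all tested genes). At an unadjusted p under 0.05 in limma 7 were lower and 0 higher (12.9% and 14.4% of all tested genes), edgeR called 0, and DESeq2 called 1 lower. Their median was -0.28, and 14 of 16 had values below 0. The called gene, *Lrpprc*, encodes a protein that stabilizes mitochondrial mRNAs. It had 10192, 10959 and 9867 normalized counts in WT and 7322, 7132 and 6238 in hnRNPL-deficient libraries (log2 fold change -0.59, SE 0.0998, limma adjusted p = 0.00880). The groups were well apart, but its change was just past 1.5-fold, and it fell under the fold limit in 6 of 20 alternatives, among them without WT replicate 2 (-0.54) or hnRNPL-deficient replicate 3 (-0.52). *Slirp*, which forms a complex with the LRPPRC protein, was at 1117 ± 78.6 and 808 ± 118 (log2 fold change -0.48, limma adjusted p = 0.0667).

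The mRNAs made by this machinery could be read directly, since the mitochondrial genome holds 13 protein-coding genes. These are not 13 separate mRNAs. *mt-Atp8* (7766 to 7969) overlaps *mt-Atp6* (7927 to 8607), and *mt-Nd4l* (9877 to 10173) overlaps *mt-Nd4* (10167 to 11544). In total the 13 genes took 6.73%, 5.51% and 6.15% of the WT libraries and 7.02%, 6.08% and 8.89% of the hnRNPL-deficient libraries. The groups overlapped, and hnRNPL-deficient replicate 3 was highest (6.13 ± 0.608 against 7.33 ± 1.43, SD, n = 3, exact permutation p = 0.3, where 0.1 is the smallest possible). By limma 2 of the 13 were called higher and 0 lower (7.28% and 4.08% of all tested genes). At an unadjusted p under 0.05 in limma 2 were higher and 0 lower (14.4% and 12.9% of all tested genes). The count test edgeR called 2 higher and 0 lower, and DESeq2 called 3 higher and 0 lower. Log2 fold changes were above 0 for 12 of the 13, with a median of 0.24, and for 8336 of the 17640 tested genes. *mt-Cytb*, of complex III, had 214597, 187570 and 207874 normalized counts in WT and 289294, 295029 and 375775 in hnRNPL-deficient libraries, without overlap (log2 fold change 0.65, limma adjusted p = 0.0291). *mt-Atp6*, of the ATP synthase, had 314646, 200631 and 216820 in WT and 395457, 311068 and 415912 in hnRNPL-deficient libraries, which overlapped (log2 fold change 0.63, limma adjusted p = 0.0827). Both calls were lost without WT replicate 2 or 3 or hnRNPL-deficient replicate 3 (log2 fold changes of 0.59, 0.66 and 0.53 for *mt-Cytb* and 0.51, 0.56 and 0.55 for *mt-Atp6*), and that of *mt-Atp6* also without hnRNPL-deficient replicate 1. *mt-Co3*, which follows *mt-Atp6* on the same strand, had 309408 ± 91360 in WT and 265826 ± 40778 in hnRNPL-deficient cells (log2 fold change -0.19, limma adjusted p = 0.608). The libraries were made from poly(A) RNA, so transcripts were selected by their tails. *mt-Nd6*, the mRNA of the other strand, had 2334 ± 533 in WT and 2359 ± 170 in hnRNPL-deficient cells (log2 fold change 0.04, limma adjusted p = 0.904).

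**Figure D5:**
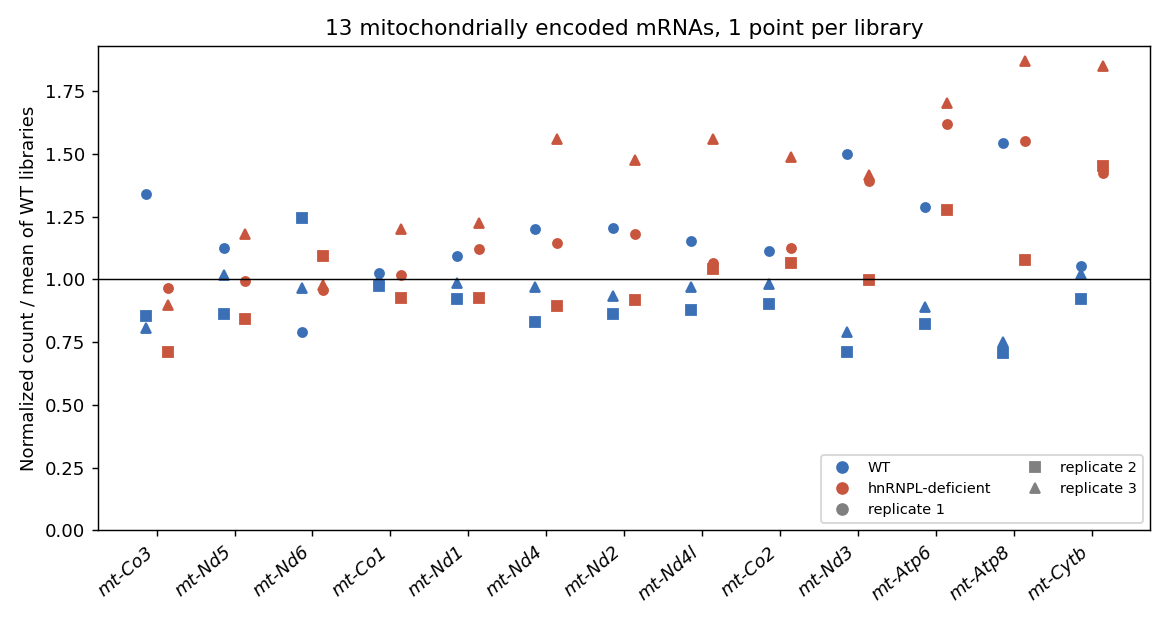
Normalized count of the 13 mitochondrially encoded protein-coding genes in each WT and hnRNPL-deficient library, divided by the mean of the WT libraries (y axis, from 0), ordered by log2 fold change, with symbols for the replicate number. Only *mt-Cytb* has all hnRNPL-deficient points above all WT points, and hnRNPL-deficient replicate 3 is often the highest.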

How the data were processed

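The libraries of 3 WT and 3 hnRNPL-deficient mice were grouped by GEO's genotype labels. The study's other assays were not analysed here. One B cell marker of the list is not reported here. Per the submitters' processing notes and the study's methods, the authors trimmed reads with fastp 0.23.1, aligned them to mm10 with STAR 2.7.9a, counted them per gene and strand with featureCounts, and divided the counts by DESeq2 1.38.2 size factors. The deposited values are these normalized counts (a signal), 1 column per library. The deposited log2 fold changes, statistic, which is a score, and raw and adjusted p-values hold the authors' own comparison and were not used.

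In R 4.3.3, log2(normalized count + 1) was fitted with limma 3.58.1 (mean-variance trend, genotype only) for genes whose mean reached 10, adjusted by Benjamini-Hochberg over all 17640 genes. Fold changes are on this scale, which understates the change of low genes. In each library 100% of values were whole reads after rescaling, within 0.001. The step of hnRNPL-deficient replicate 2 is too close to 1 for the automatic test of whole reads, so edgeR 4.0.16 and DESeq2 1.42.0 were run on the other 5 libraries. The fits were tested on simulated data. Ratios within a library were tested with a two-sided exact permutation test. Positions and exon lengths come from GENCODE annotation of GRCm38, an older release than the authors'. *Mterf1a* and *Mterf1b* are near-identical copies that could share reads.

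Named were all regulators, *Hnrnpl*, up to 4 called genes per pathway list, the 3 genes nearest to *Ppargc1b*, and the ratios. *Prkaa1*, *Ep300*, *Gabpb1*, *Gabpb2*, *Mrpl12*, *Slirp*, *mt-Co3*, *mt-Nd6*, *Pparg*, *Esrrb* and the cell type markers in the text are outside this rule, and were chosen after their values were seen. The regulators, lists and tests were chosen with earlier results of these data known. Alternatives were other pseudocounts (0.5 and 5), filters, scalings, thresholds and tools, no trend, a replicate block, *Xist* as a covariate, and leaving out each library. With 3 libraries a group, precision is limited by the spread between libraries, each from a different mouse.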

Additional observations from a re-analysis of the deposited data

How the results depend on the processing

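With 3 mice per group, small changes of the regulators could not be separated from the spread. *Ppargc1b* was called in 19 of 20 alternatives; at an adjusted p under 0.05 and 2-fold, 0 regulators were lower, as its change is under 2-fold. Those thresholds left 610 higher and 216 lower genes, and 1 higher and 2 lower genes in the 8 related lists. Without a fold limit 1406 genes were lower, 10 of them in the lists. In the lists, where 5 genes were called higher and 4 lower, quantile normalization left 2 higher and a fit without trend 3. Leaving out each library gave 830 to 1111 higher and 478 to 696 lower genes (the lowest without WT replicate 3), and 1 to 6 higher and 2 to 4 lower in the lists, with 1 higher without WT replicate 3 or hnRNPL-deficient replicate 3, 3 without WT replicate 2 or hnRNPL-deficient replicate 1, and 2 lower without hnRNPL-deficient replicate 3. Signs turned for values near 0. *Ppargc1a* ran from -0.38 to 0.19 with each library left out, and was 0.10 by edgeR and 0.076 by DESeq2. Both count tests left out hnRNPL-deficient replicate 2, without which limma gave 0.067 for this gene. *Nrf1* ran from -0.064 to 0.089, and was -0.0053 by DESeq2. *Esrra* ran from -0.076 to 0.16 and *Polrmt* from -0.25 to 0.12. The log2 ratio of *Tfb1m* to *Tfb2m* ran from -0.035 to 0.19 and that of *Polrmt* to *Tfam* from -0.038 to 0.42. The causes were not tested.

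Same-numbered WT and hnRNPL-deficient libraries had correlations of their deviations of 0.429, 0.320 and 0.0663, the third under 0.1. These values do not settle whether same-numbered libraries were paired. Of the 6 libraries, 5 correlated best with their own number, as a hint from the data. With the replicate block, 1755 genes were higher and 1018 lower, and among the regulators 0 were higher and 1 lower. The adjusted p from limma was then 0.00332 for *Ppargc1b*, 0.0169 for *Pprc1*, 0.0492 for *Tfam* and 0.0514 for *Tfb2m*, the last 3 under 1.5-fold.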
